A study of Homo sapiens with 8 samples.

Results

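Clusters of GATA2 binding regions were examined at 9 protein-coding genes, TOX, FNDC3B, CHODL, HEMK2, SUGCT, NEDD4L, CPED1, ST7 and IMMP2L. The genes were chosen by these peaks themselves: each spans less than 1 Mb and has 5 or more regions that carry a peak in every one of 4 GATA2 peak lists, counting summits from 50 kb before to 50 kb after the gene span. Overlapping peaks (1 bp or more) from different lists were joined to form regions, and those with a peak in all 4 lists are called shared here. The 9 genes were drawn from 20037 protein-coding genes, of which 19968 span less than 1 Mb, and their windows held 166 of the 36122 merged regions and 49 of the 3236 shared ones. Of the genes under 1 Mb, 12 met the limit of 5 shared regions, or 0.0601%. Since the number of shared regions chose the genes, that number and the density made from it are a description and carry no test.

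The peak lists come from GATA2 chromatin immunoprecipitation and sequencing in VCaP, an established human cell line of castrate-resistant prostate cancer. All cells were kept without steroids for 72 h. In the last 24 h one group received 1 µM JQ1, a small molecule that displaces BET bromodomain proteins from acetylated histones, and the other received the DMSO vehicle and is labelled as not treated. Each group has 2 precipitates, called untreated replicate 1 and 2 and JQ1 replicate 1 and 2, and the series also names 4 input samples, which were not analysed here as separate lists. Whether replicates came from separate cultures is not stated, so a p-value measures only the spread between these samples. The lists were of unequal length, with 6902 and 27373 peaks in the untreated replicates and 4974 and 32404 in the JQ1 replicates. A shared region therefore had to be found in the short list of JQ1 replicate 1. Peak lists do not measure expression, so the label of the cells could not be checked on marker levels. In bulk chromatin, binding in fewer cells and weaker binding per cell cannot be told apart.

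GATA2 is a zinc-finger transcription factor that recognises short GATA-containing DNA words and works at enhancers, many of them far from promoters or inside introns. The 9 genes do not form a pathway. TOX is an HMG-box nuclear protein best known from T cells, HEMK2 (also named N6AMT1 or KMT9) is the catalytic subunit of a protein methyltransferase, and NEDD4L is a HECT-type ubiquitin ligase that removes sodium channels from the cell surface. CHODL is a C-type lectin of the membrane, FNDC3B a fibronectin-domain protein of the endoplasmic reticulum, ST7 a membrane protein, and CPED1 a protein with a cadherin-like and an esterase-like domain. IMMP2L is a subunit of the inner mitochondrial membrane peptidase, and SUGCT is a mitochondrial coenzyme A transferase of glutarate metabolism.

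A pair of shared regions contained a complete upstream stretch of a RefSeq transcript start, and these are shown because the sequence under the peaks can be read there. The words AGATAA or AGATAG and TGATAA or TGATAG were searched on both strands, in the 250 bases before each start, with matches in capitals. Of 35116 such stretches in the RefSeq table (GRCh38.p14, the build named hg38), 22.3% held at least 1 word and 4.96% held 2 or more. The first stretch lies at chr18:58149070-58149319, plus strand, before an internal start of NEDD4L. The second lies at chr21:28539068-28539317, plus strand, before the start of the non-coding RNA gene LINC00161 in the window of HEMK2.
NEDD4L: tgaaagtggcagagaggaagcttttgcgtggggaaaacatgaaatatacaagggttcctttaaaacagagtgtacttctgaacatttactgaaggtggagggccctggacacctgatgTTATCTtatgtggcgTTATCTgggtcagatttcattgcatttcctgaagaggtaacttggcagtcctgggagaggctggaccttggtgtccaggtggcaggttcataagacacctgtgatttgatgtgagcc
LINC00161: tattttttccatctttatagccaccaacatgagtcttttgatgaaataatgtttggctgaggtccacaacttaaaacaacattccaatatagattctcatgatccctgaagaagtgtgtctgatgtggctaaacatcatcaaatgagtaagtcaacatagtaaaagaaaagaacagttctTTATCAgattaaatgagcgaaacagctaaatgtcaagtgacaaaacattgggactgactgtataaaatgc
The NEDD4L stretch held TTATCT, the reverse complement of AGATAA, at bases 119 to 124 and 134 to 139. The summit of the region's peak with the best q-value lay between these copies, 4.5 and 10.5 bp from their centres. The LINC00161 stretch held TTATCA, the reverse complement of TGATAA, at bases 181 to 186, with the summit 14.5 bp from its centre. A match describes the letters and is no evidence of a bound site. Promoter stretches were listed for 8 of the 9 genes, all except TOX. Over those 8 genes, 1 of 146 regions had its summit within 1 kb of a listed start of the gene, and this was the NEDD4L region shown. Within 10 kb there were 8, of which 5 were shared. The same shares over all merged regions were not computed, so these counts show no trait particular to the 9 genes.

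HEMK2 had the highest density of shared regions, 1.46 per 100 kb, with 6 in a window of 409.8 kb. TOX followed with 1.45, CHODL with 1.33, ST7 with 1.33, FNDC3B with 1.3, CPED1 with 1.22 and NEDD4L with 1.09. IMMP2L and SUGCT, whose spans of about 900 kb are the longest of the 9, had 0.50 each. Over all 9 windows the density was 0.984 shared regions per 100 kb, against 0.110 between the first and the last peak of all chromosomes. Regions missing from at least 1 list came to 2.35 per 100 kb in the windows. Regions of any kind, shared ones included, came to 1.23 over the chromosomes, so these values are of unlike sets. The 786 other coding genes with spans between those of the shortest and the longest of the 9 had a median of 8 regions of any kind and a median of 0 shared ones, and 54.1% of them had no shared region.

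The limit of 5 left few genes on either side. Besides the 9, 3 genes under 1 Mb reached 5 shared regions. AIDA and MIA3 are short neighbours on chromosome 1, whose windows overlap and give densities of 3.46 and 3.34, and FMN2 had 1.03. Another 25 genes had 4 shared regions, and the densest of these were BROX (3.26), next to AIDA, POU2AF1 (3.15) and RAB20 (2.88). The plot of density against span shows that a fixed count gives short genes a high density, since every window includes 100 kb of flank.

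**Figure D1:**
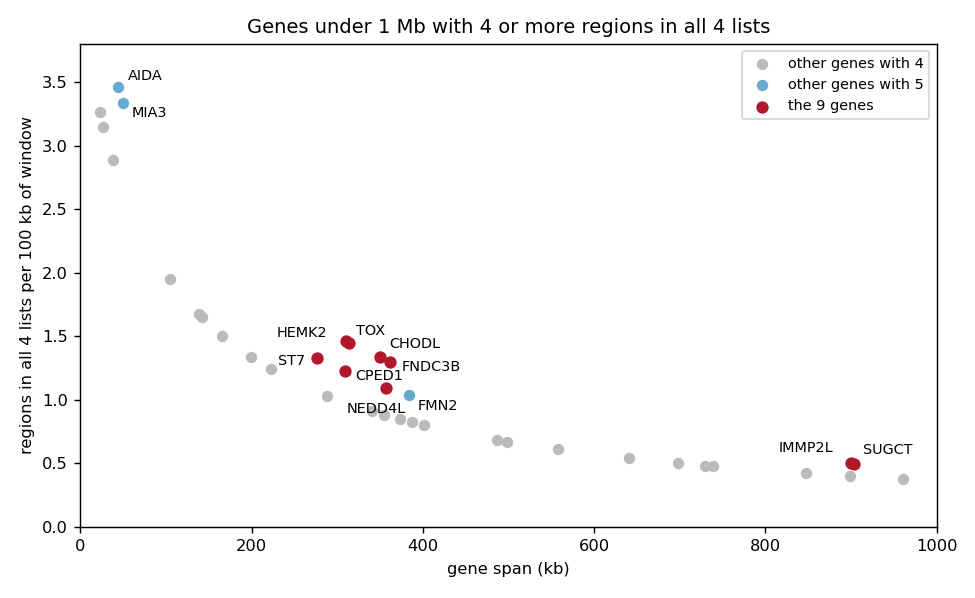
Shared regions per 100 kb of window (y axis) against gene span in kb (x axis) for the 9 genes (red), the 3 other genes under 1 Mb with 5 shared regions (blue) and the 25 with 4 (grey). The 9 genes lie between 0.498 and 1.46 per 100 kb, with SUGCT and IMMP2L at the right edge.

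Both lists of replicate 2 held more peaks than either list of replicate 1 at each of the 9 genes. HEMK2 had 8 and 20 peaks in untreated replicates 1 and 2 and 7 and 20 with JQ1. TOX had 8 and 15 untreated and 7 and 19 with JQ1, and FNDC3B had 8 and 13 untreated and 6 and 17 with JQ1. At these genes the untreated and JQ1 counts overlapped, since replicates stood further apart than treatments. CHODL and CPED1, with 7 and 12, and 6 and 11, untreated peaks, had 6 and 9, and 5 and 10, with JQ1. They and SUGCT, with 8 and 19 untreated and 6 and 17 with JQ1, were the genes where the JQ1 list was shorter in each replicate. NEDD4L had 7 and 11 untreated peaks and 5 and 14 with JQ1. ST7 had 7 and 9 untreated and 6 and 11 with JQ1. At IMMP2L, where the counts were 8 and 29 untreated and 11 and 32 with JQ1, the JQ1 list was longer in each replicate. No test was run on these counts by gene.

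**Figure D2:**
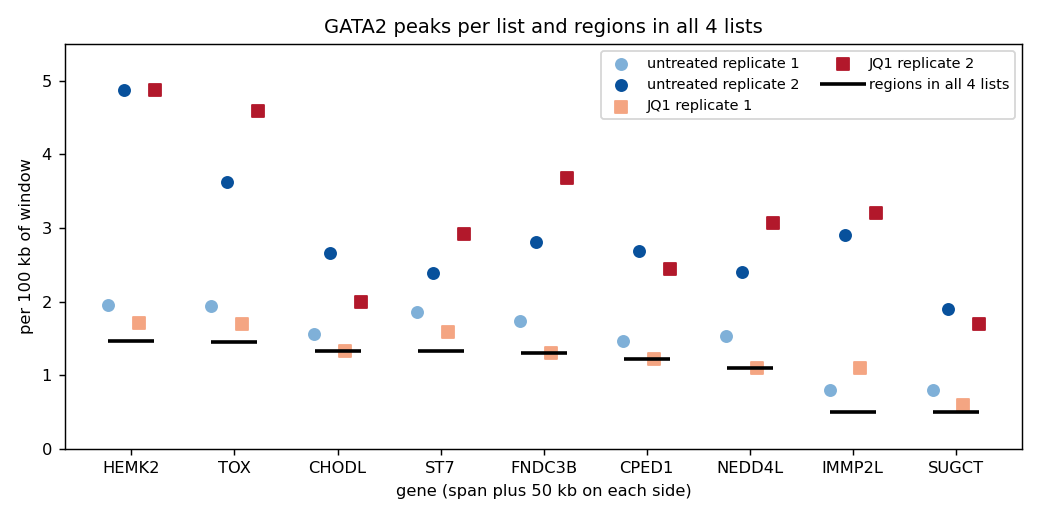
GATA2 peaks per 100 kb of window in each of the 4 lists (points) and shared regions per 100 kb (black bars) at the 9 genes. Replicate 2 lists reach 4.88 at HEMK2, while JQ1 replicate 1 lies on the bar at CHODL, FNDC3B, CPED1 and NEDD4L.

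Among the genes of nuclear and protein-modifying enzymes and factors, TOX (NCBI gene 9760, chromosome 8, 58805412 to 59119147, hg38) had 5 shared regions inside its span and 1 that lay 3.58 kb outside. The strongest by mean rank, at 59034020 to 59034393, had, in the authors' lists, a −log10 q of 28.8 and 89.8 untreated and of 27.6 and 107 with JQ1. At 59000706 to 59001156 the values were 39.8 and 128 untreated and 15.5 and 88.6 with JQ1. A q-value is set within its own list, so these values rank peaks within a list and do not measure a change. TOX also had a region found in untreated replicate 2 and JQ1 replicate 1 alone, and 5 regions in JQ1 replicate 2 alone.

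HEMK2 (gene 29104, chromosome 21, 28575598 to 28885367) differed in layout, with 3 shared regions inside the span and 3 outside. Of the outer ones, 2 lay 25.3 and 36.4 kb beyond the end far from the listed start, and the farther of these is the LINC00161 sequence printed above. The other lay 47.5 kb beyond the listed start, inside the span of LTN1, the gene of a ribosome quality-control ubiquitin ligase. The strongest by mean rank, at 28777592 to 28777940 inside the span, had a −log10 q of 28.6 and 114 untreated and of 14.1 and 113 with JQ1. The region at 28764389 to 28764836 was weak in untreated replicate 1, with 4.82, and had 86.9 in untreated replicate 2 and 14.4 and 103 with JQ1. HEMK2 also had 10 regions seen in both replicate 2 lists and in neither replicate 1 list.

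NEDD4L (gene 23327, chromosome 18, 58044226 to 58401540) had the lowest leading −log10 q of the 9 genes in every list. Its best shared region by mean rank, at 58152245 to 58152571, had a −log10 q of 14.0 and 28.9 untreated and of 7.72 and 44.3 with JQ1. The region at 58149068 to 58149404, 3.21 kb before it by summit, covers the sequence printed above and had 21.4 and 31.2 untreated and 7.82 and 14.4 with JQ1. Over its 5 shared regions the highest value was 21.4 and 50.7 untreated and 7.82 and 44.3 with JQ1. When the lists were cut to equal length, which keeps only the strongest 4974 peaks of each, NEDD4L had 0 shared regions left.

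Among the genes of membrane and secretory proteins, CHODL (gene 140578, chromosome 21, 17917340 to 18267370) had all 6 of its shared regions inside the span. The leading one, at 18089583 to 18090223, had a −log10 q of 72.2 and 226 untreated and of 47.9 and 133 with JQ1, the highest of the gene in every list. The region at 18251948 to 18252426 was the nearest to a listed CHODL start, at 6.31 kb, with 16.9 and 72.2 untreated and 13.9 and 76.7 with JQ1. With 12 regions in all, CHODL had the largest shared proportion of the 9 genes, 50%.

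FNDC3B (gene 64778, chromosome 3, 172039578 to 172401669) had its 6 shared regions inside the span, with 4 of them packed between 172132710 and 172157047. The strongest by mean rank stood apart from these, at 172298257 to 172298680, with a −log10 q of 19.0 and 110 untreated and of 11.7 and 56.7 with JQ1. Within the packed group, the region at 172137917 to 172138207 had 24.6 and 68.0 untreated and 5.91 and 63.4 with JQ1. FNDC3B regions were weak in the replicate 1 lists, with a median over the 6 of 6.92 untreated and 6.86 with JQ1.

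CPED1 (gene 79974, chromosome 7, 120988711 to 121297442) likewise had all 5 shared regions inside its span, spread over 192 kb. The region at 121041391 to 121041746 had a −log10 q of 51.6 and 151 untreated and of 32.1 and 89.4 with JQ1. The region at 121213017 to 121213754 had 15.04 and 202 untreated and 21.9 and 226 with JQ1, the highest of the 49 regions in JQ1 replicate 2. At ST7 (gene 7982, chromosome 7, 116953501 to 117230176), 3 shared regions were inside the span and 2 lay 9.77 and 30.0 kb outside. The strongest, at 117123358 to 117124012, had 33.7 and 132 untreated and 20.7 and 81.7 with JQ1, and it lies also in the span of the antisense RNA gene ST7-AS2. The next region, at 117124624 to 117124928, was only 0.999 kb from it by summit and had 3.71 and 16.4 untreated and 4.27 and 31.6 with JQ1. These are the closest pair of shared regions in the 9 windows.

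The genes of mitochondrial proteins had the sparsest shared regions, yet some of the strongest. SUGCT (gene 79783, chromosome 7, 40135005 to 41038816) had a region at 40733144 to 40733511 with a −log10 q of 89.5 and 189 untreated and of 61.3 and 211 with JQ1. It had the best mean rank of the 49. Another SUGCT region, at 40977575 to 40977970, lies also in the span of LINC01450 and had 68.6 and 134 untreated and 43.3 and 164 with JQ1. IMMP2L (gene 83943, chromosome 7, 110662644 to 111562492) had its leading region at 110677366 to 110677729, with 58.5 and 138 untreated and 34.3 and 185 with JQ1. The region at 111018928 to 111019280 had 51.5 and 169 untreated and 27.8 and 126 with JQ1. IMMP2L had the most regions of any kind, 35, of which 14.3% were shared. Both replicate 2 lists, and neither replicate 1 list, held 10 of them, JQ1 replicate 2 alone held 8 and untreated replicate 2 alone held 6.

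**Figure D3:**
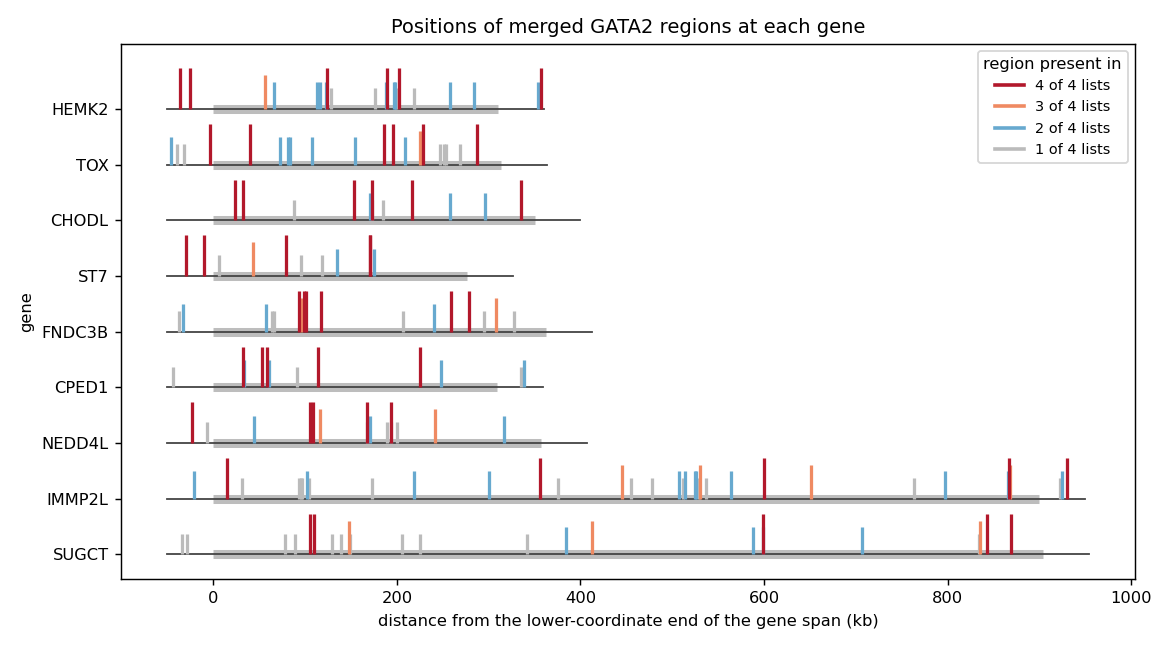
Each of the 166 merged regions drawn at its distance in kb from the lower-coordinate end of the gene span (x axis), one row per gene, with the span as a thick grey bar and the 50 kb flanks as a thin line. Taller ticks are regions present in more lists (red 4, orange 3, blue 2, grey 1), and the tight groups at FNDC3B and CPED1 contrast with the spread over IMMP2L and SUGCT.

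Shared regions sat close together within the windows. The median distance between neighbouring shared summits was 50.01 kb over 40 gaps, with 8 gaps under 10 kb, against 438 kb over 3212 gaps on all chromosomes. A short gap follows from choosing genes with many shared regions, so this is a description. By gene, the median gap was shortest at FNDC3B, with 15.7 kb, and longest at IMMP2L, with 255 kb. Inside the spans there were 41 shared regions, or 1.00 per 100 kb, and in the 50 kb flanks there were 8, or 0.889 per 100 kb. Shared regions were wider than the rest, with a median merged width of 444 bp against 229 bp, and merging more peaks into a region also widens it.

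Presence in the lists followed the length of the lists. Of the 166 regions, 49 were in 4 lists, 14 in 3, 48 in 2 and 55 in 1. The share in all 4 lists was 29.5%, against 8.96% of all merged regions, a difference that the choice of genes fixes. Since that choice lowers the share of every other pattern, the others are given over the 117 regions missing from at least 1 list, beside the 32886 such regions on all chromosomes. Presence in both replicate 2 lists alone was the most frequent, with 42 regions, or 35.9% against 41.7%. Single-list regions were 31 in JQ1 replicate 2, or 26.5% against 28.4%, and 23 in untreated replicate 2, or 19.7% against 14.6%. Only JQ1 replicate 1 was missing at 11 regions, or 9.40% against 8.79%, and only untreated replicate 1 at 3, or 2.56% against 4.04%.

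Few regions at the 9 genes went with treatment. In both untreated lists and neither JQ1 list there were 4 regions, or 2.41% (95% Wilson interval 0.941 to 6.03, counting error only), against 0.62% of all merged regions. Over the regions missing from at least 1 list the shares were 3.42% and 0.681%. The 4 regions were at SUGCT, CHODL, CPED1 and IMMP2L. The SUGCT region, at 40733658 to 40733905, had 13.8 and 8.99 as its −log10 q without JQ1 and began 146 bp after the end of the strongest shared region. The CHODL region, at 18088429 to 18088728, had 2.19 and 9.42 and lay 854 bp before that gene's leading shared region. The CPED1 region, at 121327170 to 121327397, had 5.66 and 6.37 and lay inside the span of WNT16, a Wnt ligand gene next to CPED1. The IMMP2L region, at 111188824 to 111189069, had 2.49 and 24.5. Presence in both JQ1 lists and neither untreated list was found at 1 region, or 0.602% (0.106 to 3.33) against 0.377%. Over the regions missing from at least 1 list these were 0.855% and 0.414%. The region lay inside IMMP2L at 110765049 to 110765309, with 7.48 and 25.7 in the JQ1 lists. No test was run on these counts of 4 and 1.

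Peaks outside the shared regions, which the choice of genes did not use, showed no treatment difference larger than the spread of the replicates. The windows held 16 and 84 such peaks without JQ1 and 5 and 88 with it. Per 1000 peaks of the list these were 2.32 and 3.07 untreated and 1.01 and 2.72 with JQ1. The means were 2.69 ± 0.531 (SD, n = 2) and 1.86 ± 1.21 (SD, n = 2), and the groups overlapped. On the log2 scale the JQ1 value was −0.69 relative to untreated, with a p of 0.667 in the two-sided exact permutation test, whose smallest possible p is 0.33 with 2 lists against 2. The JQ1 value was lower in each replicate, by −1.21 in replicate 1 and −0.18 in replicate 2, and the first rests on the 5 peaks of JQ1 replicate 1. A shared region needs a peak in that shortest list. Leaving shared regions out took 54 of its 59 window peaks, against 51 of 67 in untreated replicate 1. In replicate 2 it took 55 of 139 untreated and 61 of 149 with JQ1. The lower value in replicate 1 therefore cannot be told apart from list length, and the same value over all chromosomes was not computed. Counting all peaks in the windows, shared regions included, there were 9.71 and 5.08 per 1000 untreated and 11.9 and 4.6 with JQ1, so the replicates went in opposite directions.

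The strength of the shared regions was compared by rank, because the same 3236 regions can be ranked by q-value in every list. A rank percentile of 0 is the strongest. The choice of genes used presence and not rank. The median percentile of the 49 regions was 48.1 and 47.3 untreated and 51.0 and 54.7 with JQ1, so they stood near the middle of all shared regions. The JQ1 medians were both higher, by 5.16 percentile points on average (47.7 ± 0.568 against 52.8 ± 2.67, SD, n = 2), with a p of 0.33 in the two-sided exact permutation test, the smallest it can give. With the gene spans alone the difference was −0.88, and over regions shared by the replicate 2 lists (replicate 1 left out) it was −4.80, so the direction did not hold. Region by region, the JQ1 ranks were both poorer than the untreated ranks at 7 of 49, or 14.3%, against 17.6% of all shared regions. They were both better at 9, or 18.4%, against 16.5%. These proportions were near those of all shared regions.

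Among the 7 regions that ranked poorer in both JQ1 lists, the region of CPED1 at 121103090 to 121103554 stood at 20.98 and 47.3 untreated and at 93.7 and 56.9 with JQ1. SUGCT at 40239608 to 40240236 stood at 48.1 and 63.5 untreated and at 89.2 and 81.0 with JQ1. The TOX region at 59000706 moved from 12.4 and 14.3 to 29.5 and 29.1. Among the 9 that ranked better in both, HEMK2 at 28764389 stood at 92.3 and 34.8 untreated and at 33.0 and 20.9 with JQ1. CHODL at 18070423 to 18070778 stood at 67.5 and 75.3 untreated and at 42.1 and 57.5 with JQ1. TOX, ST7, FNDC3B and SUGCT each held regions in both groups, so their regions did not go one way. NEDD4L held none in either. HEMK2 and CHODL held 2 each, all better with JQ1, while CPED1 held 2 and IMMP2L 1, all poorer. These counts give no direction for a gene, since ranks overlapped at 4 more regions each of HEMK2, CHODL and IMMP2L and 3 of CPED1. Of these, CHODL at 18133403 was poorer in each replicate, with 22.4 and 36.1 untreated and 33.7 and 47.0 with JQ1. CPED1 at 121213017 was better in each, with 50.6 and 1.79 untreated and 16.3 and 0.803 with JQ1. The regions named by position were picked after their ranks were seen.

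**Figure D4:**
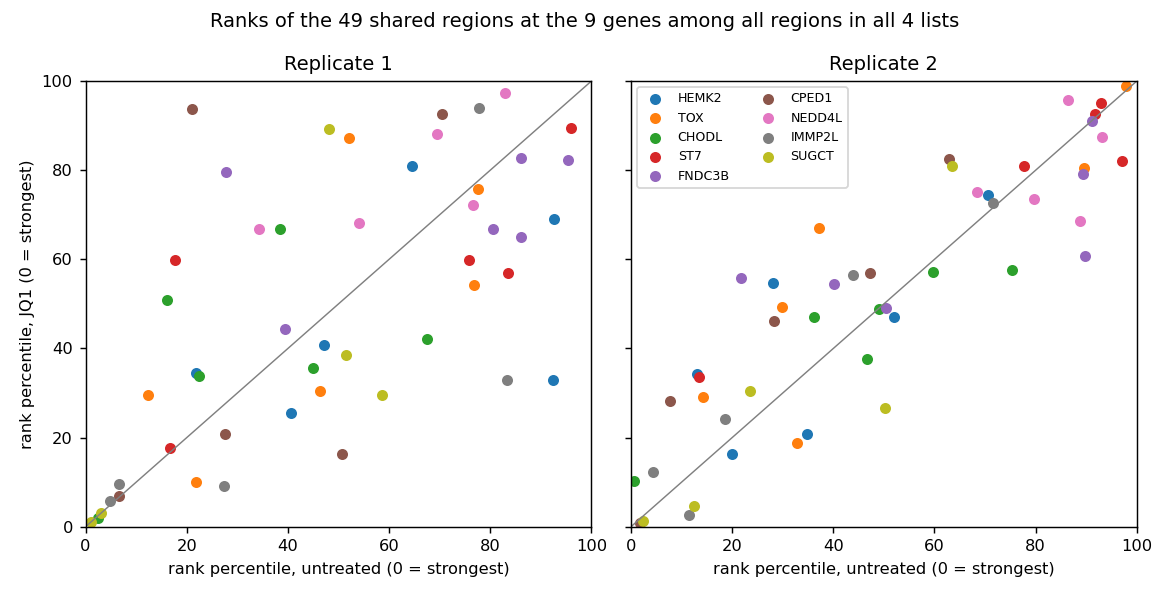
Rank percentile with JQ1 (y axis) against rank percentile in untreated cells (x axis) for the 49 shared regions at the 9 genes, in replicate 1 (left) and replicate 2 (right), with a line of equal rank. Points scatter more widely around the line in replicate 1, where CPED1 at 121103090 moves from 20.98 to 93.7, than in replicate 2.

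Around the windows, the density of shared regions was lower than inside them and above that of the chromosomes. From 50 to 250 kb outside the spans, on sequence that the choice of genes did not use, there were 13 shared regions in 3600 kb, or 0.361 per 100 kb (0.211 to 0.617, from the 95% Wilson interval of 13 among all 3236 shared regions, counting error only), against 0.110 over all chromosomes. They were unevenly placed, with 5 around SUGCT, 2 each around HEMK2 and ST7, 1 each around TOX, CPED1, NEDD4L and IMMP2L, and 0 around CHODL and FNDC3B. With replicate 1 left out, so that only the replicate 2 lists had to share a region, the density was 1.61, against 0.719 over all chromosomes by the same rule. From 50 to 150 kb it was 0.556, with all 4 lists required. Regions of any kind numbered 95 in these flanks, or 2.64 per 100 kb, against 1.23 over all chromosomes.

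The genes were also unevenly placed on the chromosomes. SUGCT, ST7, CPED1 and IMMP2L are on chromosome 7, which held 6.52% of all shared regions, and CHODL and HEMK2 are on chromosome 21, which held 2.35%. Chromosome 21 had 0.203 shared regions per 100 kb and chromosome 7 had 0.133, against 0.110 over all chromosomes. The local background that the authors' caller used was recovered from each peak's fold enrichment and p-value, and is given relative to the lowest background of its list. The median over all peaks was 2.17 and 1.58 untreated and 2.13 and 1.77 with JQ1. HEMK2 stood above this in every list, with 4.68 and 2.90 untreated and 4.93 and 3.0 with JQ1. CHODL, with 3.74 and 2.61 untreated and 3.04 and 3.39 with JQ1, was likewise above in each list, as were TOX, ST7, IMMP2L and SUGCT. SUGCT reached 4.23 and 2.26 untreated and 4.73 and 2.52 with JQ1. NEDD4L was under the median in 3 of 4 lists and above it in JQ1 replicate 1, with 1.58 and 1.47 untreated and 2.40 and 1.61 with JQ1. CPED1 was under the median in untreated replicate 2, with 1.49, and above it in the other lists. FNDC3B was under it in untreated replicate 2, with 1.55, level with it in JQ1 replicate 2 and above it in both replicate 1 lists. The part of local background in the density of peaks was not tested.

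Of 10 other coding genes with a span in one of the windows, 3 held a region. LTN1 in the HEMK2 window had 2 regions, 1 of them shared, WNT16 in the CPED1 window had 1, and LRRN3, a neuronal leucine-rich repeat gene nested in IMMP2L, had 2, neither of them shared. CAPZA2, WNT2, TMPRSS15, GHSR, ING3, CDK13 and MPLKIP held none inside their spans within the windows. The share of all coding genes with a region inside the span alone was not computed, so the count of 3 is a description.

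Of 17 family relatives and partners of the 9 genes, 4 had a shared region within 50 kb, or 23.5%, against 13.4% of coding genes under 1 Mb. A region in at least 1 list was found at 14, or 82.4% against 62.5%, and 3 (TOX4, SMURF1 and IMMP1L) had none. The median span was 120.03 kb for the relatives and 24.0 kb for coding genes under 1 Mb, and a longer span gives a wider window. TRMT112, the activating partner of HEMK2, had 2 shared regions, and TOX3, HECW2 and SMURF2 had 1 each. HECW2 and SMURF2 are HECT ubiquitin ligases like NEDD4L. The other listed ligases of this type, NEDD4, ITCH, WWP1, WWP2, HECW1 and SMURF1, had 0. No test was made. By peaks per 100 kb in the 4 lists (distance on log2 of the value plus 1, from the median of the 9 genes), the genes under 1 Mb most alike were DOP1B, RPS10-NUDT3, CYP4F22 and KPNB1. Each of them had 2 shared regions. DOP1B, the nearest, had 1.68 and 2.53 peaks per 100 kb untreated and 1.26 and 2.95 with JQ1, against medians of 1.56 and 2.69, and 1.3 and 3.06, for the 9 genes.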

How the data were processed

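Peak lists of 4 GATA2 precipitates were used, called per sample. The tools that the submitters' processing notes name are Bowtie2, MACS2 and Picard, and the build is hg38; their versions: not given in the sources used here. The score in the deposited lists, the caller's whole number, was not used. The deposited fold enrichment is a linear ratio, and the −log10 p and −log10 q values are those of the authors' caller (every q at most 0.05). They served to rank and filter peaks within a list. The background was recovered as the value at which (pileup + 1) over (background + 1) gives the deposited fold and the Poisson tail gives the deposited p within 0.02. The scaling factor in this step was 0.686 for untreated replicate 2 and 1 for the other lists.

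Peaks on the numbered chromosomes and the sex chromosomes were merged (1 bp overlap) and placed by summit on RefSeq gene spans (GRCh38.p14). No genome or exon table was used, so exons, introns and the sequence of other regions were not analysed here. Python 3.11.15, pandas 2.3.3 and scipy 1.17.1 were used, and merging, ranking and the exact permutation test were tested on simulated data. Named genes are the 9 genes, each one's best-ranked shared region, window neighbours, listed relatives, genes near the limit and the 4 most alike. Members and lists were chosen with earlier results of these data known. Alternatives were another merging rule, a stricter q, other windows, equal list lengths and leaving out a replicate.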

Additional observations from a re-analysis of the deposited data

How the results depend on the processing

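The number of shared regions at the 9 genes was 49 and stayed within 1.5 times of that under other merging, a q-value limit of 1e-05 and other windows. It was 31 with lists of equal length, and ran from 49 to 105 when a replicate was left out. The density in the 50 to 250 kb flanks ran from 0.361 to 1.61 when a replicate was left out (0.111 and 0.719 over all chromosomes), and was 0.25 with lists of equal length (0.0687 over all chromosomes) and 0.556 from 50 to 150 kb. A replicate left out means that only 2 lists have to share a region. The difference in median rank percentile was −0.88 with the gene spans alone and −0.32 with 10 kb flanks, was 8.84 with lists of equal length, and ran from −4.80 to 6.03 without a replicate, so its direction is not settled. The cause was not tested. Without replicate 1 or 2, peaks outside shared regions gave −0.05 and −0.36 on the log2 scale, against −0.69 with all lists. They gave −0.20 with merging by summits and −0.15 with lists of equal length. Same-numbered lists share only a number in the labels. The replicate block gave 5.16 for the rank difference, −0.69 for peaks outside shared regions (exact sign-flip p = 0.5 for both, the smallest it can give) and 0.07 for all peaks. Deviations of same-numbered lists correlated at 0.395 over 12479 genes. Both replicate 1 lists are short and both replicate 2 lists long, so this value cannot tell a pairing of samples from list length. The limit of 5 shared regions was met by 2 of the 9 genes with equal list lengths and by 3 at the stricter q-value. It was met by 5 with spans alone, 5 with 10 kb flanks, 8 with merging by summits, and all 9 with 100 kb flanks or a replicate left out. With equal list lengths FNDC3B had 3 shared regions, ST7 1 and NEDD4L 0. With spans alone HEMK2 and ST7 had 3 each, and at the stricter q-value NEDD4L and CPED1 had 3 each. With 2 lists against 2, no test here can reach p 0.05.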
